A study of Mus musculus with 15 samples.

Results

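The common dendritic cell progenitor (CDP) of mouse bone marrow held 34 genes whose array signal was higher there than in each of 3 neighbouring myeloid stages, out of 18193 genes measured, or 0.187%. A gene belonged to them when the mean of its 2 CDP arrays, as log2(intensity + 32), lay at least 0.6 above the mean of the 2 arrays of common myeloid progenitors (CMP), of granulocyte-macrophage progenitors (GMP) and of bone marrow precursors of classical dendritic cells (pre-cDC). The lower CDP array also had to lie above all 6 other arrays. The distance from the CDP mean to the next-highest group mean is called the margin. Of 37 genes that met these limits, 3 were left out by name, namely Id2, Nfil3 and Il7r with margins of 1.44, 2.52 and 1.13. Batf3 and Cx3cr1 were also barred by name but did not meet the limits. None of the 247 measured genes of a cell division list met the limits, so 0 were left out for that reason. The CDP arrays chose the genes, so every value of CDP against another stage below is a description without a test.

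All samples came from wild-type C57Bl/6 mice, with 15 one-colour arrays in all, and progenitors were taken from mice at steady state. CDP were sorted from bone marrow as lineage-negative, IL7R-, MHCII-, CD16/32- and CD11c- cells with intermediate CD117 (Kit) and with CD135 (Flt3). CMP carried the same gates but high CD117, GMP were CD117 high and CD16/32+ without CD135, and bone marrow pre-cDC had low CD117 with both CD135 and CD11c. These 4 groups had 2 arrays each, and each further sample had 1 array. Bone marrow monocytes were read at 0 h, with no dose given, and after 24 or 48 h with 20 ng/ml GM-CSF. No later monocyte array was without GM-CSF, so time in culture and GM-CSF cannot be told apart. Bone marrow was grown for 7 days with 20 ng/ml of GM-CSF (adherent cells, and non-adherent CD11c+ cells) or of M-CSF (adherent cells). A further pre-cDC sample was titled Spl, but its tissue label reads bone marrow. The labels give no age and do not say whether arrays 1 and 2 of a group came from separate animals, so the spread behind each p-value may be technical. In sorted populations measured in bulk, fewer cells of a type and less RNA per cell cannot be told apart.

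In mouse bone marrow, dendritic cells arise from progenitors that keep the receptors Flt3 and Csf1r. CMP stand upstream, and GMP give rise to granulocytes and monocytes. CDP are known as the stage from which plasmacytoid and classical dendritic cells both descend, and pre-cDC are committed to the classical lineage and leave the marrow for lymphoid and other tissues. The 34 genes include receptors for lipids, cytokines and chemokines, adhesion molecules, a Notch receptor and a MADS-box transcription factor, so they are described by what their products do.

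Genes of the sort gates were read in the 4 groups, and not all of them followed the gates. Kit read 368 and 335 in CDP, against 1229 and 1209.6 in CMP, 905 and 1085 in GMP and 36.3 and 36.8 in bone marrow pre-cDC (intensity, arrays 1 and 2). Flt3 read 1408 and 1623 in CDP, against 1193 and 1204 in CMP, 35.9 and 31.8 in GMP and 1322 and 1434 in bone marrow pre-cDC. Itgax, which encodes CD11c, read 153 and 124 in CDP, against 24.6 and 24.5 in CMP, 14.7 and 13.6 in GMP and 1537 and 1563 in bone marrow pre-cDC, and Irf8, a transcription factor gene of the dendritic and monocyte lineages, read 4489.8 and 4936 in CDP, against 1957 and 2109.6 in CMP, 1565 and 1556 in GMP and 4989.5 and 5468 in bone marrow pre-cDC. The Kit level of CDP thus lay between that of CMP and that of pre-cDC, Flt3 was low in GMP, and the CDP signal of Itgax was above that of CMP although CDP were gated as CD11c-. Fcgr3, of CD16/32, read 21.9 and 22.3 in CDP, against 1775 and 1730 in GMP. H2-Aa, an MHC class II gene, read 762 and 595 in CDP, against 120 and 72.8 in CMP, although both were gated as MHCII-. Il7r read 109 and 94.8 in CDP, its highest group, against 29.2 and 28.3 in CMP, although both were gated as IL7R-. On the CDP arrays the T cell marker Cd3e read 5.18 and 5.91, and the B cell markers Cd79a and Ms4a1 read 4.47 and 3.91, and 5.94 and 7.16, all under the array medians of 15.95 to 17.44 that the progenitor arrays had. Other such markers were brighter. Of longer lists, 4 of 11 B cell markers and 4 of 15 T and NK cell markers lay above the array median on both CDP arrays. Arrays of the same group correlated across genes at 0.995 to 0.997, and 0 of the 34 genes differed by 1 or more on the log2(intensity + 32) scale between the 2 arrays of any group. Of all 18193 genes, only 7 did so in CDP, 6 in CMP, 9 in GMP and 2 in bone marrow pre-cDC, so nothing is read from that 0.

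CDP means of the 34 genes ran from 26.15 to 2570 in intensity, with a median of 253, and all 34 lay above the array median on both CDP arrays. On the CMP arrays 31 did so on each, on the GMP arrays 27 and 28, and on the bone marrow pre-cDC arrays 30 and 29. The median is over all probe sets and each gene is read from its brightest, so 56.2% to 58.7% of all genes lay above it on these arrays. The margin ranged from 0.61 to 1.91 with a median of 0.75, and 8 genes had a margin of 1 or more. In plain intensity, 17 of the 34 were at least 2-fold above every other group mean. The next-highest group was CMP for 21 genes, bone marrow pre-cDC for 7 and GMP for 6, and the lowest group was GMP for 18, bone marrow pre-cDC for 14 and CMP for 2. These orders rest on the values that chose the genes. Over all genes too, CDP differed least from CMP. At an adjusted p under 0.05, limma called 7.63% of all genes higher and 6.72% lower in CDP than in CMP. The shares were 16% and 12.1% against GMP, and 18.9% and 14.4% against bone marrow pre-cDC. No trait of the 34 is read from CMP being next-highest most often. The same limits set on other stages gave 76 genes peaking in CMP, 292 in GMP and 1079 in bone marrow pre-cDC. The genes barred by name and the cell division genes were left out there too.

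**Figure D1:**
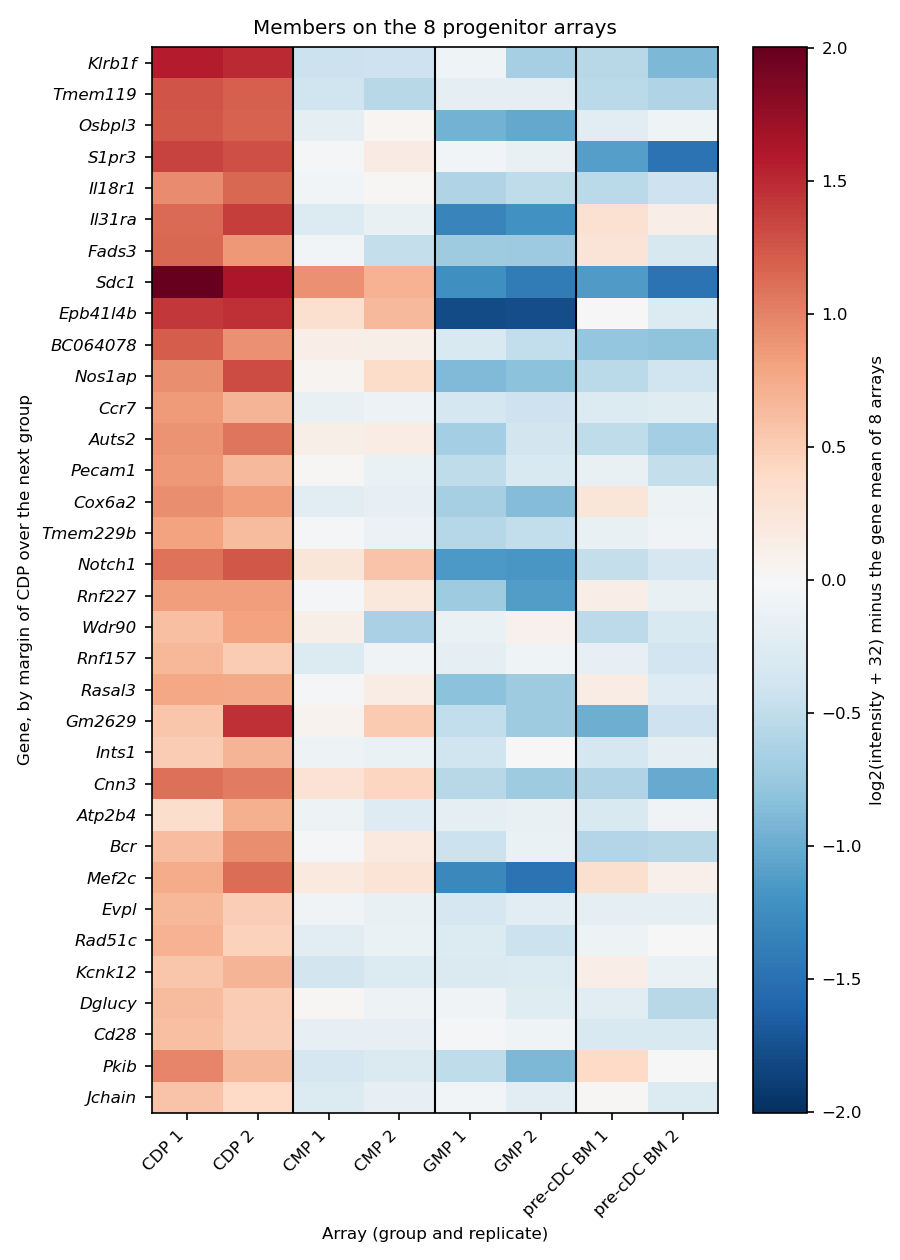
Intensity of the 34 genes on each of the 8 progenitor arrays, as log2(intensity + 32) minus the gene's mean of the 8 arrays (colour), with genes in order of margin and CDP arrays before those of CMP, GMP and bone marrow pre-cDC. A reader should see the CDP arrays highest in every row, as the choice of genes requires, and GMP or pre-cDC lowest in 32 of the 34.

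Differences among CMP, GMP and bone marrow pre-cDC were tested in 1 limma fit, and a gene passed, or was called, at a Benjamini-Hochberg adjusted p under 0.05 over all genes. Each is a log2 difference of the first group minus the second on the scale of log2(intensity + 32), which understates the ratio of dim genes. The choice of genes did not compute these 3 comparisons, but its limits read the same arrays, and the comparisons share arrays with one another.

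Klrb1f had the largest margin, 1.91. It encodes a C-type lectin-like receptor of the family known from natural killer cells. Its intensity was 1137 and 1081 in CDP, against 260.02 and 262 in CMP, 339 and 215 in GMP and 234 and 178 in bone marrow pre-cDC. The CDP mean was 4.25-fold that of CMP and 5.38-fold that of pre-cDC, while the arrays of CMP, GMP and pre-cDC ran from 178 to 339. None of the 3 comparisons among those groups passed for Klrb1f (0.05, adjusted p = 0.902 for GMP against CMP, -0.31, adjusted p = 0.163 for pre-cDC against CMP and -0.36, adjusted p = 0.104 for pre-cDC against GMP). Its relatives Klrb1a and Klrb1b read between 2.06 and 10.94 on every progenitor array. BC064078, a long noncoding RNA gene of RefSeq that lies near Klrb1f on chromosome 6 with only Clec2f annotated between, read 347 and 275 in CDP, against 146 and 145 in CMP, 100.04 and 83.9 in GMP and 63.6 and 60.9 in bone marrow pre-cDC. It therefore also peaked in CDP, but the other groups were ordered from CMP to pre-cDC. BC064078 was lower in GMP than in CMP (log2 difference -0.52, SE 0.122, adjusted p = 0.00964) and lower in pre-cDC than in CMP (log2 difference -0.91, SE 0.122, adjusted p = 3.46e-05).

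S1pr3, a receptor of the circulating lipid sphingosine 1-phosphate, read 705 and 676 in CDP, against 248 and 293 in CMP, 246 and 229 in GMP and 103 and 71.3 in bone marrow pre-cDC. The GMP arrays lay just under those of CMP, and both pre-cDC arrays lay far below them. S1pr3 was lower in bone marrow pre-cDC than in CMP (log2 difference -1.35, SE 0.133, adjusted p = 2.01e-06) and than in GMP (log2 difference -1.19, SE 0.133, adjusted p = 6.15e-06), whereas GMP against CMP did not pass (-0.17, adjusted p = 0.487). Ccr7, the chemokine receptor that guides mature dendritic cells to lymph nodes, was dim in all 4 groups at 49.98 and 41.2 in CDP, against 9.18 and 10.2 in CMP, 3.62 and 2.26 in GMP and 5.65 and 6.38 in bone marrow pre-cDC. Only its CDP arrays were above the array median, and the GMP against CMP difference was small (-0.26, adjusted p = 0.0368) and on values near the floor of the arrays.

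Among cytokine receptors, Il31ra, a signalling chain of the interleukin-31 receptor, read 412 and 493 in CDP, against 135 and 149 in CMP, 48.8 and 54.4 in GMP and 216 and 189 in bone marrow pre-cDC. Here GMP was lowest and pre-cDC next to CDP, and no group overlapped another. Il31ra was lower in GMP than in CMP (log2 difference -1.06, SE 0.119, adjusted p = 3.85e-05) and was higher in pre-cDC both than in GMP (log2 difference 1.49, SE 0.119, adjusted p = 2.31e-07) and than in CMP (log2 difference 0.43, SE 0.119, adjusted p = 0.00960). Il18r1, the ligand-binding chain of the interleukin-18 receptor, read 69.9 and 85.5 in CDP, against 18.9 and 21.9 in CMP, 2.64 and 5.32 in GMP and 4.35 and 7.49 in bone marrow pre-cDC. Its GMP and pre-cDC arrays were below the array median, so its log2 differences against CMP of -0.54 in GMP and -0.47 in pre-cDC understate the ratio of the intensities. Cd28, the costimulatory receptor known from T cells, read 49.5 and 43.6 in CDP, against 16.1 and 15.9 in CMP, 20.2 and 18.6 in GMP and 11.4 and 11.7 in bone marrow pre-cDC. It stayed dim throughout, and of the 3 comparisons only pre-cDC against GMP passed (log2 difference -0.24, SE 0.0802, adjusted p = 0.0270).

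Sdc1 encodes syndecan-1, a cell-surface heparan sulfate proteoglycan known as a plasma cell marker. It read 531 and 399 in CDP, against 234 and 195 in CMP, 27.5 and 21.4 in GMP and 32.1 and 18.4 in bone marrow pre-cDC. CDP and CMP were both far above GMP and pre-cDC, whose arrays overlapped. Sdc1 had the largest fall of the 34 in pre-cDC against CMP (log2 difference -2.11, SE 0.153, adjusted p = 1.06e-07) and fell about as far in GMP against CMP (log2 difference -2.12, SE 0.153, adjusted p = 7.57e-07), while pre-cDC against GMP did not pass (0.01, adjusted p = 0.964). Its probe set is of a type that can cross-hybridise. Of 3 further Sdc1 probe sets without that mark, the brightest averaged 203 in CDP, against 83.1 in CMP, 10.9 in GMP and 13.01 in pre-cDC. Another averaged 33.5 in CDP, against 23.6 in CMP, 11.7 in GMP and 12.1 in pre-cDC, below the limit, and the dimmest read 6.47 in CDP, against 7.07 in CMP, and was not highest in CDP. Pecam1, an adhesion molecule of endothelial and blood cells, read 275 and 233 in CDP, against 139 and 122 in CMP, 86.5 and 105 in GMP and 119.8 and 88.8 in bone marrow pre-cDC. The arrays of the 3 other groups ran from 86.5 to 139, and none of the comparisons among them passed.

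Notch1, a receptor gene that is needed for T cell specification, read 876 and 979 in CDP, against 476 and 601 in CMP, 159.9 and 158 in GMP and 277 and 306 in bone marrow pre-cDC. The order was CDP, CMP, pre-cDC and GMP, with no overlap between groups. Notch1 fell in GMP against CMP (log2 difference -1.57, SE 0.121, adjusted p = 1.39e-06) and, less far, in pre-cDC against CMP (log2 difference -0.81, SE 0.121, adjusted p = 8.72e-05), so that pre-cDC was above GMP (log2 difference 0.76, SE 0.121, adjusted p = 0.000147). Mef2c, a MADS-box transcription factor gene active in lymphoid and myeloid progenitors and in muscle, was among the brightest at 1851 and 2411 in CDP, against 1256 and 1333 in CMP, 428 and 371 in GMP and 1377 and 1168 in bone marrow pre-cDC. CMP and pre-cDC overlapped and GMP stood far below. Mef2c was lower in GMP than in CMP (log2 difference -1.62, SE 0.126, adjusted p = 1.49e-06) and higher in pre-cDC than in GMP (log2 difference 1.60, SE 0.126, adjusted p = 2.07e-07), but pre-cDC against CMP did not pass (-0.03, adjusted p = 0.896). Auts2, a nuclear protein gene best known from brain development, read 154 and 179 in CDP, against 76.7 and 78.5 in CMP, 30.5 and 45.4 in GMP and 38.02 and 30.7 in bone marrow pre-cDC. Auts2 was lower in GMP (-0.66, adjusted p = 0.00219) and in pre-cDC (-0.73, adjusted p = 0.000270) than in CMP.

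The promoters of Klrb1f, Sdc1, Il18r1 and Notch1 are shown because they belong to the gene with the largest margin, for which CMP, GMP and pre-cDC were not told apart, and to 3 genes of surface proteins that were lower in both GMP and pre-cDC than in CMP. They are given 5′ to 3′ from 250 bases before to 50 bases after the annotated start, from RefSeq on GRCm38.p6. Capitals mark every match, on either strand, to the CACCC box CACACCC, the core GAGGAAG bound by PU.1 or the GC box GGGCGG. In Klrb1f a GC box and a CACCC box on the opposite strand share bases in 1 run of capitals. Of the 3 Il18r1 promoters, the promoter shown was picked for the most CACCC box matches. A PU.1 core lies in an Il18r1 promoter that is not shown. Klrb1f lies on the plus strand at chr6:129045651-129045950, Sdc1 on the plus strand at chr12:8771146-8771445, Il18r1 on the plus strand at chr1:40465371-40465670 (1 of 3 annotated promoters) and Notch1 on the minus strand at chr2:26503773-26504072.
Klrb1f: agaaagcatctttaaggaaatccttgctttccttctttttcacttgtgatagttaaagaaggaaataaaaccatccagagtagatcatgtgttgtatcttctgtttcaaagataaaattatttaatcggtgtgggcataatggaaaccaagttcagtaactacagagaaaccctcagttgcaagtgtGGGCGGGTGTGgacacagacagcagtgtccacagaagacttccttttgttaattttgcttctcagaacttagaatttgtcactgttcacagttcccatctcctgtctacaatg
Sdc1: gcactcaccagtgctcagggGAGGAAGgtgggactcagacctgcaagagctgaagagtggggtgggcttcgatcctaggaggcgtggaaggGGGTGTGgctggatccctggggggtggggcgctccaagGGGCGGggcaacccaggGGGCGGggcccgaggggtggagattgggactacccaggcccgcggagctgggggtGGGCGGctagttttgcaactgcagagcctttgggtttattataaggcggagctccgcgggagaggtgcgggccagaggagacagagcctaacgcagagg
Il18r1: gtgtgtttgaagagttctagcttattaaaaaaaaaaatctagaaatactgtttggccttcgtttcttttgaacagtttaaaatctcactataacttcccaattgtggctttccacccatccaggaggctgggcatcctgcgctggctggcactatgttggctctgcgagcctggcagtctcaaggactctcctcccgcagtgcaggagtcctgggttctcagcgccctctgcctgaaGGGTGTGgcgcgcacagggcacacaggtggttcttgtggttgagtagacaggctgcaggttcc
Notch1: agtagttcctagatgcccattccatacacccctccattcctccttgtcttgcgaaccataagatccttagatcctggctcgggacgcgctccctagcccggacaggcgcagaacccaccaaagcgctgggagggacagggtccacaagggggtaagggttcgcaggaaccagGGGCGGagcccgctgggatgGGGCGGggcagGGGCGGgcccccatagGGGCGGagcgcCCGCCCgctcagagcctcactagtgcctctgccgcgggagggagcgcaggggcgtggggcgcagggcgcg

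The Notch1 promoter held 5 GC boxes and 23 CpG dinucleotides, Sdc1 3 GC boxes and 14 CpG, Il18r1 7 CpG without a GC box, and Klrb1f 2 CpG. CpG-rich and CpG-poor promoters thus both occur among genes that peak in CDP. Of the 34 genes, 24 had an entry, with 33 promoters in all. Over those 33, the GC box was found in 20 (60.6%, against 35.7% of all 32851 promoters of the same length), the PU.1 core in 7 (21.2%, against 13.6%) and the CACCC box in 3 (9.09%, against 7.95%). The 33 had a median of 10 CpG, against 7 over all promoters, and GGGCGG itself holds a CpG. The part of base composition was not tested. The E box CAGGTG occurred in 9 (27.3%, against 20.2%), the C/EBP motif TTGCNNAA in 5 (15.2%, against 10.8%), the AP-1 motif TGANTCA in 2 (6.06%, against 7.81%) and the RBPJ motif GTGGGAA, that of the DNA-binding partner of Notch, in 1 (3.03%, against 6.38%). The Ets-IRF composite motif, the interferon response motif and the Nfil3 motif TTANGTAA were in 0 of the 33, against 2.72%, 3.44% and 2.32% of all promoters. All 10 motifs were chosen after the expression values had been seen, on both strands, and a match is a run of letters, not a site. Several promoters of 1 gene can overlap, and no test was made.

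Other membrane proteins followed no single order. Tmem119, a membrane protein gene best known as a microglia marker, had a margin of 1.41 and read 147 and 139 in CDP, against 24.3 and 19.03 in CMP, 34.2 and 33.5 in GMP and 19.2 and 17.3 in bone marrow pre-cDC. It was the only gene of the 34 that was higher in GMP than in CMP (log2 difference 0.30, SE 0.0947, adjusted p = 0.0482), a call that was lost on leaving out any of the 6 arrays of CMP, GMP and pre-cDC. Tmem229b read 1593 and 1396 in CDP, against 866 and 819.6 in CMP, 593 and 626 in GMP and 798 and 849 in bone marrow pre-cDC, and was lower in GMP than in CMP (-0.45, adjusted p = 0.00518) and higher in pre-cDC than in GMP (0.42, adjusted p = 0.00269). Kcnk12, a potassium channel gene, read 323 and 355 in CDP, against 156 and 168 in CMP, 166 and 169 in GMP and 233 and 189 in bone marrow pre-cDC, with pre-cDC above CMP (0.32, adjusted p = 0.0423). Atp2b4, a calcium pump of the plasma membrane, read 153 and 206 in CDP, against 104 and 88.8 in CMP, 94.4 and 99.4 in GMP and 85.96 and 107 in bone marrow pre-cDC. For Atp2b4 the 3 other groups overlapped one another and none of their comparisons passed.

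Lipid handling was represented by Osbpl3 and Fads3. Osbpl3, an oxysterol-binding protein gene, read 548 and 526 in CDP, against 183 and 221 in CMP, 96.00 and 88.5 in GMP and 179.8 and 199 in bone marrow pre-cDC. CMP and pre-cDC overlapped there and GMP was lower than either. Osbpl3 fell in GMP against CMP (log2 difference -0.91, SE 0.114, adjusted p = 9.62e-05) and was higher in pre-cDC than in GMP (log2 difference 0.83, SE 0.114, adjusted p = 3.84e-05). Fads3, of the fatty acid desaturase family, read 124 and 95.5 in CDP, against 35.4 and 17.9 in CMP, 10.7 and 9.93 in GMP and 51.7 and 24.02 in bone marrow pre-cDC. Its CMP and pre-cDC arrays overlapped as well, and pre-cDC exceeded GMP (log2 difference 0.70, SE 0.177, adjusted p = 0.00552).

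Of the cytoskeletal genes, Cnn3, an actin-binding calponin, was the brightest of the 34 at 2633 and 2507 in CDP, against 1484 and 1639.8 in CMP, 812 and 721 in GMP and 781 and 583 in bone marrow pre-cDC. Its GMP and pre-cDC arrays overlapped, and both were below CMP (-0.998, adjusted p = 7.23e-05 in GMP and -1.17, adjusted p = 3.12e-06 in pre-cDC). Its probe set, like that of Sdc1, is of a type that can cross-hybridise, and all 5 further probe sets of Cnn3 met the same limits as the first. Only a single further probe set is without that mark, and it averaged 1200 in CDP, against 618 in CMP, 289 in GMP and 230 in pre-cDC. The rest are of the same type and can cross-hybridise too. Epb41l4b, which encodes a FERM-domain protein of the band 4.1 family, read 478 and 496 in CDP, against 207 and 268 in CMP, 23.6 and 23.8 in GMP and 159 and 127 in bone marrow pre-cDC. It had the largest fall of the 34 in GMP against CMP (log2 difference -2.27, SE 0.130, adjusted p = 8.74e-08), was higher in pre-cDC than in GMP (log2 difference 1.65, SE 0.130, adjusted p = 2.12e-07), and remained lower in pre-cDC than in CMP (log2 difference -0.62, SE 0.130, adjusted p = 0.00151). Evpl, which encodes the plakin envoplakin known from epithelia, was dim at 61.1 and 50.6 in CDP, against 24.3 and 21.03 in CMP, 14.7 and 18.4 in GMP and 19.5 and 19.8 in bone marrow pre-cDC, and none of its comparisons among the other groups passed.

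Signalling adaptors and regulators gave mixed orders. Nos1ap, an adaptor of neuronal nitric oxide synthase, read 125 and 171 in CDP, against 53.5 and 73.4 in CMP, 12.2 and 14.2 in GMP and 24.4 and 30.5 in bone marrow pre-cDC. It was lower than in CMP both in GMP (log2 difference -1.07, SE 0.136, adjusted p = 0.000107) and in bone marrow pre-cDC (log2 difference -0.68, SE 0.136, adjusted p = 0.00104). Rasal3, a Ras GTPase-activating protein gene of blood cells, read 255 and 251 in CDP, against 130.5 and 152 in CMP, 62.5 and 69.8 in GMP and 153 and 107 in bone marrow pre-cDC. GMP was lowest, below CMP (-0.82, adjusted p = 0.000851) and below pre-cDC (pre-cDC against GMP 0.71, adjusted p = 0.000644). Bcr, known from the leukaemia fusion with Abl1, read 351 and 445 in CDP, against 211 and 253 in CMP, 154 and 196 in GMP and 133 and 137 in bone marrow pre-cDC. Its fall in pre-cDC against CMP passed (log2 difference -0.66, SE 0.139, adjusted p = 0.00158). Pkib, an inhibitor of protein kinase A, read 278 and 217 in CDP, against 93.7 and 97.1 in CMP, 79.1 and 52.6 in GMP and 176 and 128 in bone marrow pre-cDC. Its pre-cDC arrays were next to CDP, above those of CMP (log2 difference 0.52, SE 0.160, adjusted p = 0.0188) and of GMP (log2 difference 0.91, SE 0.160, adjusted p = 0.000347).

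The remaining genes serve cell metabolism, RNA and DNA. Cox6a2, a cytochrome c oxidase subunit gene known from heart and skeletal muscle, belonged to the plasmacytoid dendritic cell list and read 97.9 and 89.5 in CDP, against 26.8 and 28.9 in CMP, 10.8 and 5.43 in GMP and 48.7 and 31.4 in bone marrow pre-cDC. It was lower in GMP than in CMP (-0.58, adjusted p = 0.00398) and higher in pre-cDC than in GMP (0.84, adjusted p = 5.21e-05). Dglucy, the D-glutamate cyclase gene, read 203 and 182 in CDP, against 122 and 108 in CMP, 112 and 95.8 in GMP and 98.4 and 70.97 in bone marrow pre-cDC. Rad51c, a recombination repair gene, read 133 and 108 in CDP, against 55.5 and 60.7 in CMP, 52.1 and 43.7 in GMP and 62.6 and 70.2 in bone marrow pre-cDC. Ints1, a subunit of the Integrator complex that processes small nuclear RNAs, read 338 and 385 in CDP, against 211 and 205 in CMP, 165 and 227 in GMP and 171 and 196 in bone marrow pre-cDC. Of these 3, only Rad51c passed in a comparison, as higher in pre-cDC than in GMP (log2 difference 0.30, SE 0.115, adjusted p = 0.0485).

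Wdr90, a WD-repeat protein gene, read 408 and 475 in CDP, against 279.7 and 153 in CMP, 232 and 273 in GMP and 168 and 201 in bone marrow pre-cDC. The RING finger gene Rnf157 read 139.7 and 122 in CDP, against 57.8 and 70.6 in CMP, 63.6 and 69.9 in GMP and 64.4 and 50.97 in bone marrow pre-cDC. Rnf227, annotated in RefSeq as a long noncoding RNA gene, read 212 and 213 in CDP. It read 102 and 127 in CMP, 51.3 and 31.2 in GMP and 119 and 91.7 in bone marrow pre-cDC. Rnf227 was the lowest in GMP, below CMP (-1.01, adjusted p = 0.000337) and below pre-cDC (pre-cDC against GMP 0.91, adjusted p = 0.000163), whereas neither Wdr90 nor Rnf157 passed in any of the 3 comparisons. Rnf157 lies on chromosome 11, as do 6 of the 34 genes, with 6 annotated genes between it and Evpl. Gm2629, a pseudogene in RefSeq, read 382 and 739 in CDP, against 261 and 369.9 in CMP, 167 and 139.8 in GMP and 111 and 178 in bone marrow pre-cDC. Its CDP arrays differed by 0.90 on the log2 scale, more than its margin of 0.72, and it was the only gene of the 34 for which that was so.

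The 4 genes just inside the limit were Jchain, Pkib, Cd28 and Dglucy, with margins of 0.605, 0.608, 0.611 and 0.612. Those just outside that kept the order of arrays were L3mbtl3, Gm1673, Cdkn1a and Parp8, with 0.5999, 0.587, 0.573 and 0.572. No gap separated the 2 sides of the limit, so the list of 34 is a cut through a continuous range. Jchain, the joining chain of polymeric antibodies, was the dimmest of the 34 at 29.6 and 22.6 in CDP, against 2.44 and 5.21 in CMP, 7.93 and 3.97 in GMP and 10.3 and 2.41 in bone marrow pre-cDC. Its CDP values were little above the array median.

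Probe sets other than the one that chose a gene are a further reading of the same RNA. Of the 34 genes 23 had 44 further probe sets. The CDP mean was the highest of the 4 groups in 39 of the 44, and 16, from 12 genes, met the same limits. These include dim probe sets, and 33 of the 44 lay above the array median on both CDP arrays. Klrb1f had a further probe set at 187 in CDP, against 63.4 in CMP, 90.5 in GMP and 37.3 in pre-cDC. For Mef2c, 1 of 4 further probe sets met the limits with a margin of 1.08, and the other 3 had margins of 0.47 to 0.53. Other bright ones did not meet the limits. That of Pkib averaged 179 in CDP, against 157 in pre-cDC, and that of Rnf227 151, against 118 in pre-cDC. In both, the lower CDP array did not lie above all 6 others. Ints1 had 155 in CDP, against 134 in CMP, and the further probe sets of Auts2 had margins of 0.18 to 0.42. Further probe sets were read on the same arrays and RNA and are no separate replicate. The share of all probe sets that are highest in CDP was not counted, so nothing is read from the 39 and the 16.

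**Figure D2:**
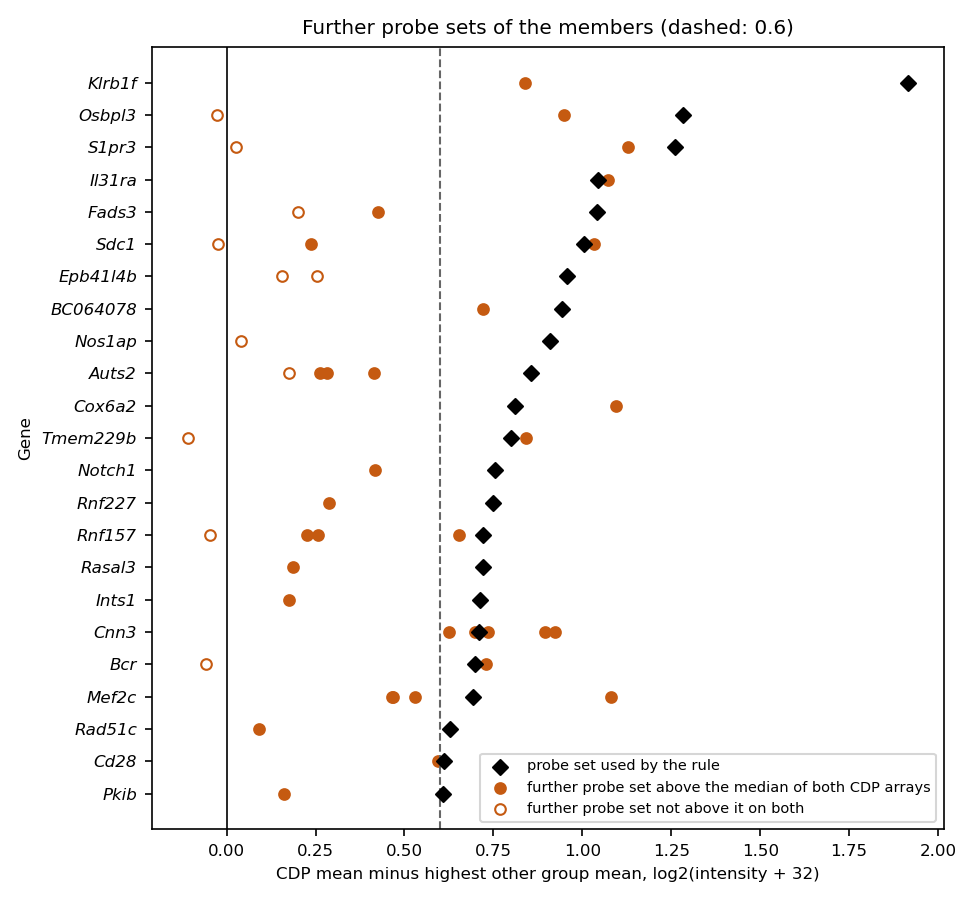
Margin of each further probe set (CDP mean minus the highest other group mean, log2 scale) beside the probe set that chose the gene, for the 23 genes that have any; filled points lie above the median of both CDP arrays. Of 44 further probe sets 39 are above 0, that is highest in CDP, and 16 meet the limits.

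Over all genes, CDP against CMP was called higher for 7.63% in limma's test at an adjusted p of 0.05, CDP against GMP for 16% and CDP against pre-cDC for 18.9%. Of the 34, 33, 34 and 34 were called higher in these comparisons and 0 lower (6.72%, 12.1% and 14.4% of all genes), which restates the choice of genes. The exception was Gm2629 against CMP, with an adjusted p of 0.0809.

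Counted over the 34 genes, the comparisons among the other groups gave both directions. In GMP against CMP, 17 of the 34 were lower (9.86% of all genes were called lower) and 1 was higher (7.04% of all genes), and 16 did not pass. The median log2 difference was -0.42 over the 34 and -0.01 over all genes. The falls were largest for Epb41l4b, Sdc1, Mef2c, Notch1 and Nos1ap. GMP thus had the lower level in all but 1 of the 18 called genes. The number higher was 0 without CMP array 2, either GMP array or either pre-cDC array.

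In bone marrow pre-cDC against GMP, 13 of the 34 were higher (21.1% of all genes) and 4 were lower (23.2%), with 17 not passing and a median of 0.08 over the 34. The largest rises were those of Epb41l4b, Mef2c, Il31ra, Rnf227 and Pkib (1.65, 1.60, 1.49, 0.91 and 0.91). The genes that fell were S1pr3, BC064078, Tmem119 and Cd28 (-1.19, -0.39, -0.39 and -0.24). The number lower was 2 without GMP array 1 and 2 without pre-cDC array 2.

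In bone marrow pre-cDC against CMP, 11 of the 34 were lower (23.1% of all genes) and 3 were higher (19.2%), with 20 not passing and a median of -0.14. The largest falls were those of Sdc1, S1pr3, Cnn3, Gm2629 and BC064078 (-2.11, -1.35, -1.17, -0.99 and -0.91). Pkib, Il31ra and Kcnk12 were the 3 that rose (0.52, 0.43 and 0.32). That number was 0 without CMP array 1 or pre-cDC array 1, 1 without CMP array 2 and 5 without pre-cDC array 2. As shares, 50% of the 34 were lower in GMP than in CMP, 32.4% lower in pre-cDC than in CMP and 38.2% higher in pre-cDC than in GMP.

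Of the calls named for single genes, 15 were lost on leaving out at least 1 array. In GMP against CMP, Ccr7 and Tmem119 were lost without any of the 6 arrays of CMP, GMP and pre-cDC, BC064078 without either CMP array or GMP array 2, and Gm2629 without CMP array 2 or either GMP array. Cox6a2 was lost there without GMP array 2 and Tmem229b without GMP array 1. In pre-cDC against GMP, Rad51c was lost without any of those 6 arrays, Cd28 and Nos1ap without any GMP or pre-cDC array, BC064078 without GMP array 1 or either pre-cDC array, and Fads3 without pre-cDC array 1. In pre-cDC against CMP, Kcnk12 was lost without any CMP or GMP array or pre-cDC array 1, Pkib without either CMP array or pre-cDC array 1, Il31ra without CMP array 1 or pre-cDC array 1, and Gm2629 without CMP array 2 or pre-cDC array 1. The falls of Epb41l4b, Sdc1, Mef2c, Notch1, S1pr3 and Cnn3 described above passed without each of the 8 arrays in turn.

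**Figure D3:**
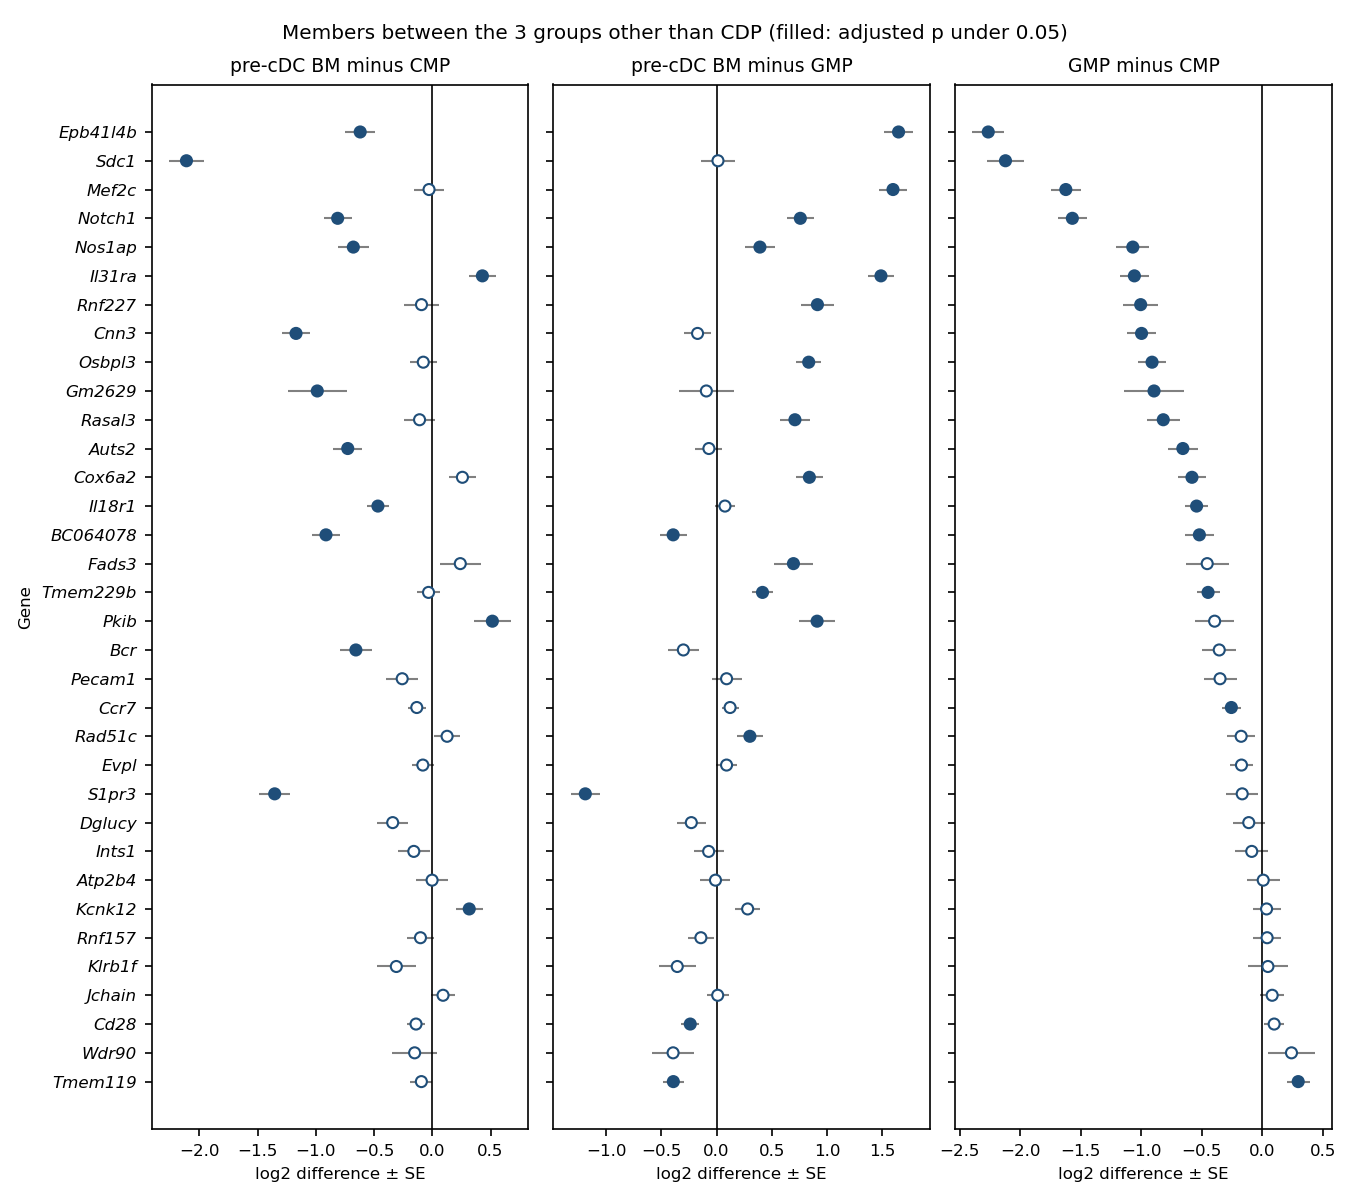
Log2 difference of each of the 34 genes in bone marrow pre-cDC against CMP (left), bone marrow pre-cDC against GMP (middle) and GMP against CMP (right), with SE and with called genes filled (limma, adjusted p under 0.05). In GMP against CMP 17 genes are called below 0 and 1 above.

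Combining the comparisons, 10 genes (29.4% of the 34, against 5.35% of all genes) were both lower in GMP than in CMP and higher in pre-cDC than in GMP: Osbpl3, Il31ra, Epb41l4b, Nos1ap, Cox6a2, Tmem229b, Notch1, Rnf227, Rasal3 and Mef2c. These 2 calls share the GMP arrays. A set of 9 (26.5%, against 4.4% of all genes), of which Epb41l4b, Nos1ap and Notch1 are also among the 10, were lower in both GMP and pre-cDC than in CMP: Il18r1, Sdc1, Epb41l4b, BC064078, Nos1ap, Auts2, Notch1, Gm2629 and Cnn3. S1pr3 and BC064078 were lower in pre-cDC than in both CMP and GMP (5.88%, against 17.8% of all genes), and Il31ra and Pkib higher in pre-cDC than in both (5.88%, against 16.2%). No call was made in any of the 3 comparisons for 9 genes (26.5%, against 47.2% of all genes), Klrb1f, Pecam1, Wdr90, Rnf157, Ints1, Atp2b4, Evpl, Dglucy and Jchain. For these 9 the groups other than CDP were not told apart at 2 arrays each.

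The lists of lineage and pathway genes held few of the 34. None was in the classical dendritic cell core list (25 measured), the monocyte list (22) or the early progenitor list (26), but Id2 of the core list met the limits and was barred by name. With 0.187% of all genes among the 34, nothing is read from a count of 0 in lists of this size. In pre-cDC against CMP, 18 genes of the dendritic cell core list rose and 1 fell, 19 and 0 of the monocyte list, and 1 and 22 of the early progenitor list. Most genes of those lists thus ran 1 way between CMP and pre-cDC, whereas the 34 genes were chosen for a high point in CDP. The plasmacytoid dendritic cell list (20 measured, 12 higher and 1 lower in pre-cDC against CMP) held Cox6a2. The lymphoid-primed list (17 measured, 2 higher and 6 lower) held Jchain and Notch1. The cytokine receptor list (33 measured, 17 higher and 9 lower) held Il18r1. Both of these lists also contain Il7r, which met the limits and was barred by name. Further, the chemokine receptor and homing list (25 measured, 13 higher and 2 lower) held Ccr7 and S1pr3.

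Summed intensities of marker lists moved with the stages as follows. The 17 lymphoid-primed genes summed to 5985 to 6417 in CDP, 4490.5 to 5089 in CMP, 1623 to 1864 in GMP and 3842 to 4079 in pre-cDC. They include Notch1, Jchain and Il7r, which met the limits for a CDP peak, so the choice of genes sets part of this order. Notch1 alone averaged 927 in CDP, against 539 in CMP, 159 in GMP and 291 in pre-cDC. The 11 B cell markers summed to 2445 to 2564 in CDP, against 1604 to 1699.9 in CMP, 1056 to 1291 in GMP and 2926 to 3062 in pre-cDC, with 4 of 11 above the array median in each group. The 15 T and NK cell markers summed to 467 to 576 in CDP, against 516 to 599.8 in CMP, 1962 to 2013 in GMP and 1586 to 1872 in pre-cDC, with 4 of 15 above the array median in each group. In CDP against GMP, 2 of the 15 were called lower, 1 higher and 12 neither, so few genes carry that sum. Erythroid and megakaryocyte markers (16) summed to 272 to 329.7 in CDP, against 4702 to 6660.3 in CMP, 2952 to 5360.3 in GMP and 163 to 172 in pre-cDC. Cd28, Klrb1f, Sdc1 and Jchain, which are known from lymphoid cells, peaked in CDP. The T and NK cell sum there overlapped that of CMP, below GMP and pre-cDC. The B cell sum in CDP lay between those of CMP and pre-cDC. Sums carried by few genes do not measure the content of such cells. The part of other cells in the signal of the 4 genes was not tested.

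The single arrays of monocytes showed these genes outside the progenitor stages, on another scale and with no replicate, so no p-value is given and differences are formed within the 3 arrays. A gene was counted at a 2-fold difference in intensity + 32, with the higher value above its array's median, so a dim gene can differ 2-fold in plain intensity and not be counted. At 48 h against 0 h of GM-CSF, 6 of the 34 were counted higher (7.31% of all genes) and 12 lower (6.15%). At 24 h against 0 h the counts were 3 higher (6.17%) and 12 lower (7.26%), and at 48 h against 24 h 5 higher (2.7%) and 0 lower (0.841%). Ccr7 read 16.9, 121 and 2977 at 0, 24 and 48 h. S1pr3 read 163, 439 and 1256, and Il18r1 45.8, 30.1 and 427. These 3 receptor genes, with Fads3 (54.7, 212 and 449), had the 4 largest higher differences at 48 h, and Pkib and Sdc1 completed the 6. Both homing receptor genes were thus higher at each later time.

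The 4 largest lower differences at 48 h against 0 h were those of Jchain, Kcnk12, Gm2629 and Mef2c (-4.11, -3.67, -3.01 and -2.67). Jchain read 3755, 332 and 187 at 0, 24 and 48 h, Kcnk12 526, 10.8 and 11.9, and Mef2c 1438, 163 and 199. For these the low level was already present at 24 h. Beside Jchain, the 11 B cell markers summed to 7679, 695 and 495 at 0, 24 and 48 h, and Ighm alone read 6423, 250.2 and 114. Only 4 of the 11 lay above the array median at 0 h. Cd79b read 700, 25.03 and 19.97. Cd79a (39.8, 44.5 and 37.3) and Ms4a1 (54.3, 30.4 and 39.9) stayed under the array medians. The 10 neutrophil markers summed to 29417, 9387 and 8124. The part of other cells was not tested. Klrb1f stayed bright at all 3 times, at 2198, 1159 and 1528, and Notch1 read 5878 at 0 h and 2269 at 48 h.

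**Figure D4:**
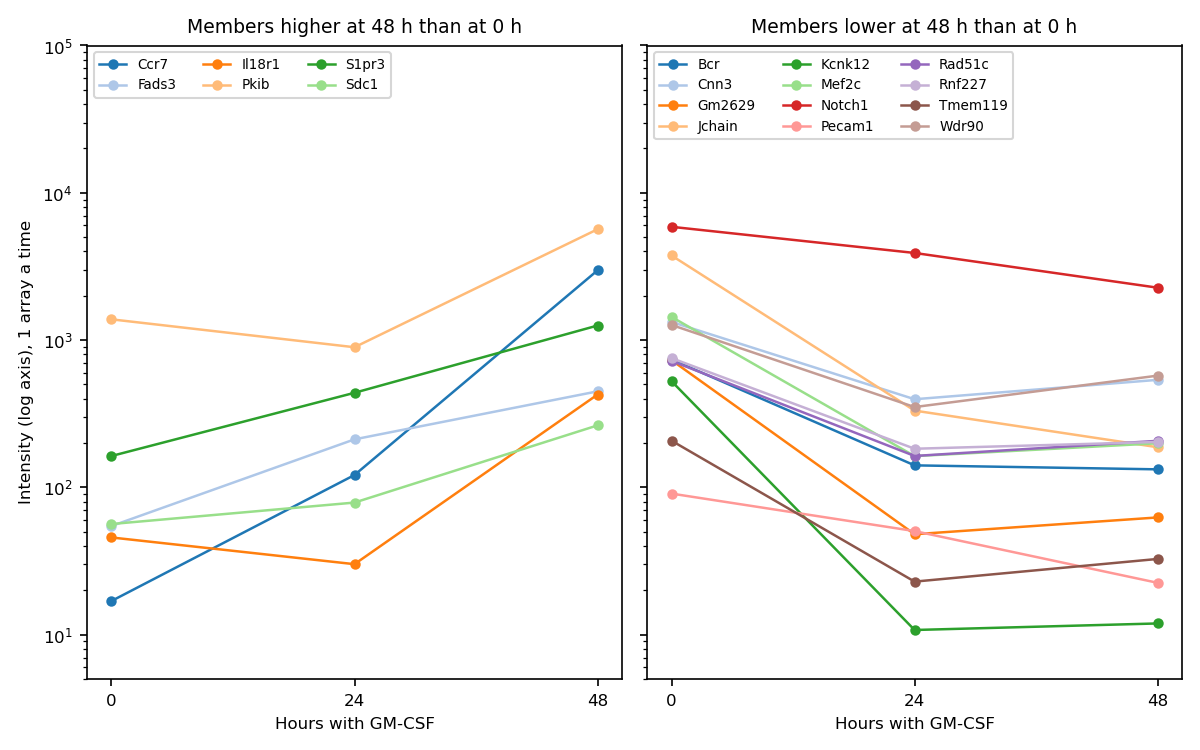
Intensity (log axis) on the 3 monocyte arrays at 0, 24 and 48 h of GM-CSF, 1 array per time, for the 6 genes counted higher (left) and the 12 counted lower (right) at 48 h than at 0 h. Ccr7 reads 16.9 at 0 h and 2977 at 48 h, while Jchain, Kcnk12, Gm2629 and Mef2c are already low at 24 h.

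In the cultures, non-adherent CD11c+ cells grown with GM-CSF had 6 of the 34 counted higher (5.25% of all genes) and 4 lower (4.26%) than adherent cells grown with M-CSF by the same measure, on 1 array each. Ccr7 read 7190.4 in the GM-CSF CD11c+ cells, against 86.5 in the M-CSF adherent cells. Il18r1 read 304 against 1.15, Notch1 527 against 154 and Tmem119 98.6 against 13.04 in the same order, and Pkib and Osbpl3 were the other 2 counted higher. Lower in the CD11c+ cells were Cd28 (193 against 1912), Mef2c (213 against 971), Jchain (4.45 against 85.4) and Nos1ap (6.48 against 60.4). Ccr7, Il18r1 and Pkib were thus counted higher here and in monocytes after 48 h with GM-CSF, and Mef2c and Jchain were counted lower in both settings. Notch1 and Tmem119 were counted in opposite directions, higher here (log2 differences 1.59 and 1.54) and lower at 48 h against 0 h (-1.36 and -1.89).

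Adherent cells grown with GM-CSF, against those grown with M-CSF, had 4 of the 34 higher (3.37%) and 3 lower (2.08%). Against the adherent GM-CSF cells the CD11c+ cells had 3 higher, namely Pkib, Il18r1 and Ccr7 (2.43%), and 1 lower, Nos1ap (1.26%). Klrb1f, the gene with the largest margin in CDP, read 15.2, 12.7 and 14.3 in GM-CSF CD11c+, GM-CSF adherent and M-CSF adherent cells, under the array medians of 24.09 to 25.66. Its signal was thus low in all 3 cultures and high on the progenitor and monocyte arrays.

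On the pre-cDC array titled Spl, which stood on another scale with a median of 74.17, 25 of the 34 lay above the array median, as did 56.7% of all genes. Ranks there are given as percentiles of all probe sets. Mef2c was at percentile 98.4, Pkib at 95.01, Cnn3 at 91.3, Atp2b4 at 90.8 and Ccr7 at 84.7. At the low end were Sdc1 at 2.96, Cd28 at 3.29, Jchain at 5.35 and Klrb1f at 9.03. Over the 34, the median percentile was 62.4 on that array, against 86.9 and 85.5 on the CDP arrays and 77.6 and 75.6 on the bone marrow pre-cDC arrays. Ranks of 1 array in another scale make no test of a difference.

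**Figure D5:**
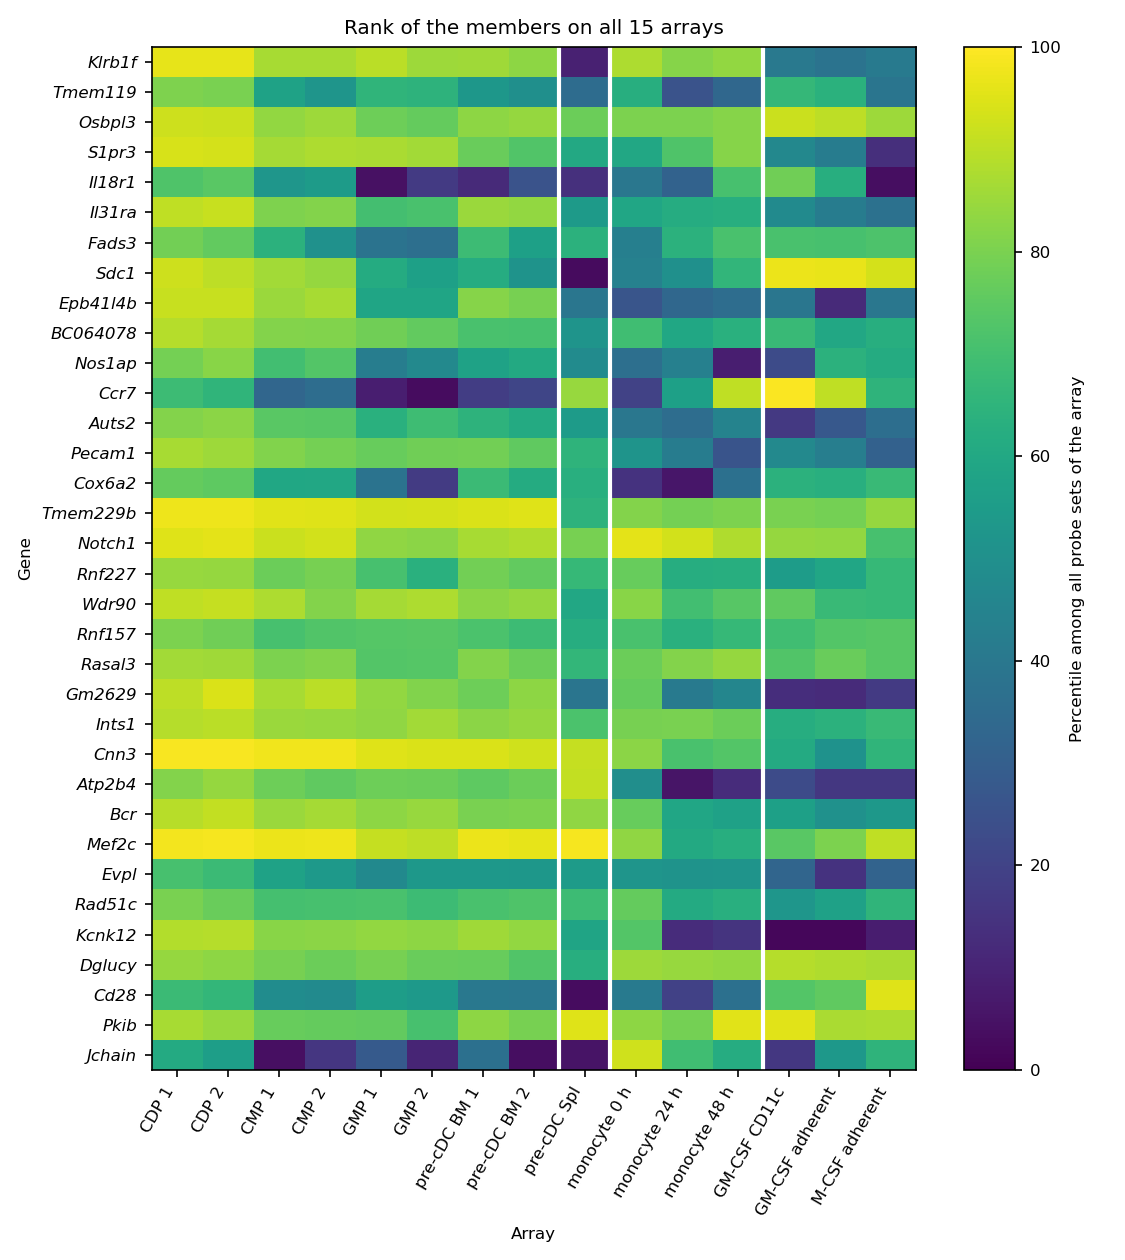
Percentile of each of the 34 genes among all probe sets on the 15 arrays as a colour from 0 to 100, with genes in order of margin and arrays grouped by sample type. The medians on the 2 CDP arrays are 86.9 and 85.5, and the median on the Spl array is 62.4.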

How the data were processed

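Expression was measured on 15 Affymetrix Mouse 430 2.0 arrays. Each deposited file gives a linear intensity per probe set; the authors' background correction, summary and scaling are not given in the sources. The labels name the 3' IVT Express kit. Of 45037 probe sets 34945 named 1 gene, 932 several and 9160 none; only the first were used. Each of 18193 genes was read from the probe set that was brightest on average over 15 arrays, and 18031 were matched to RefSeq by gene ID, all 34 CDP-peak genes among them. Promoters came from RefSeq on GRCm38.p6.

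Values were analysed as log2(intensity + 32), so differences of dim genes are understated. A linear model in limma 3.58.1 (R 4.3.3), moderated with eBayes and a trend on intensity, was fitted to the 8 progenitor arrays as 4 groups; it left 4 residual degrees of freedom, or 12.6 with moderation. Two-sided p-values were adjusted by Benjamini-Hochberg over all genes and called at 0.05. The fit was tested on simulated data. Arrays in groups of 1 were counted past 2-fold on that scale with the higher value above its array's median. The scales of the progenitor, culture, monocyte and Spl arrays differ (medians 15.95 to 17.44, 24.09 to 25.66, 77.73 to 80.53 and 74.17), so no difference was formed across them. The number of arrays limits the precision. Tables and figures used pandas 2.3.3 and matplotlib 3.10.9 in Python 3.11.15.

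The CDP-peak genes, the gene lists and the tests were chosen with earlier results of these data known. The genes named are the 24 with the largest margin, the 5 largest rises and falls per comparison, list members, the 4 on each side of the limit, and the 4 largest differences each way on monocyte and culture arrays; the other members, and Klrb1a and Klrb1b, are named outside that rule, after their values were seen. Alternatives were the offset, quantile normalization, a filter on dim genes, the mean of all probe sets, the probe set by progenitor arrays, the margin, eBayes without trend, a replicate block and leaving out each array.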

Additional observations from a re-analysis of the deposited data

How the results depend on the processing

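With 2 arrays a group, values of dim genes depend on the offset of 32. The limits set at a margin of 1.0 gave 8 genes and at 0.4 gave 85, which held all 34. Leaving out each array in turn gave 32 to 45 genes. With an offset of 64, 24 of the 34 met the limits, with quantile normalization 25, and with the mean of all probe sets 20.

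In GMP against CMP, 0 were called higher with an offset of 64, and on leaving out an array 0 to 1 were higher and 13 to 17 lower. In pre-cDC against CMP, leaving out an array gave 0 to 5 higher and 11 to 12 lower, and in pre-cDC against GMP 10 to 13 higher and 2 to 5 lower. With an array left out a group rests on 1 array, assumed to vary like the others. Over all genes, GMP against CMP had 3075 calls, and 1831, 1933 and 1907 without CMP array 2, GMP array 1 and GMP array 2. In GM-CSF CD11c+ against GM-CSF adherent cells, 2 were counted lower with an offset of 16, an alternative chosen after seeing the data. The cause of these changes was not tested beyond the smaller number of arrays.

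Of 1530 values of single genes recomputed, 0 turned round with a call, and 44 changed sign with no call under either setting. Beside the arrays left out, 10 calls were lost under other settings: those of Nos1ap and Rad51c (pre-cDC against GMP) and of Tmem119 and Ccr7 (GMP against CMP) with an offset of 64, of Rad51c and of Kcnk12 (pre-cDC against CMP) with quantile normalization, of Rad51c and of Gm2629 (GMP against CMP) with the mean of all probe sets, and of Ccr7 and Gm2629 (GMP against CMP) in eBayes without trend. In all, 16 values gained a call under settings other than an array left out. With the replicate number as a replicate block, calls were 3 higher and 12 lower in pre-cDC against CMP, 13 and 6 in pre-cDC against GMP, and 1 and 20 in GMP against CMP. Same-numbered arrays deviated together with correlations of -0.02 to 0.18, and the labels do not say what a shared number stands for, so the block is not taken as a pairing.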

Other observations

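Of the 10092 probe sets without a single gene, 14 met the same limits for a peak in CDP. They were not named.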
